A study of Mus musculus with 9 samples.

Results

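ZEB1 occupancy after 72 h in eribulin was compared with that in untreated cells, over 4 of the 9 libraries of the study and all 23623 consensus peaks of its count table. The cells were PB3, a mouse breast cancer line labelled Er-/Pr-/Her2-. The untreated controls, whose cell line is labelled PB3-Parental, had 2 libraries, and the cells held in 300 nM eribulin for 72 h, labelled PB3_ERI, had 2. Libraries after 24 and 48 h at the same dose, 2 each, shared the fit, and the IgG library was not counted. Every library but IgG was made with an antibody to ZEB1 by CUT&RUN, in which a nuclease tethered to the antibody releases the DNA beside its target. Whether replicates are separate cultures, and any batch, is not in the labels, so p-values speak only of the spread among these libraries, which may be technical. The treated cells carry another cell line label than the controls, and drug and line label cannot be told apart. Occupancy does not measure expression, so the line's identity could not be checked against markers here.

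ZEB1 is a zinc-finger protein that binds E-boxes of the form CACCTG, or CAGGTG on the other strand, and represses epithelial genes such as Cdh1 together with corepressors that include CtBP proteins and histone deacetylases. It is known for driving the epithelial to mesenchymal transition in carcinoma cells, and with other partners, among them AP-1 and YAP, it can also activate genes. Eribulin blocks the growth of microtubules, and the study asks how breast cancer cells of mesenchymal kind regain epithelial features in the drug.

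The start windows shown next are drawn from RefSeq on GRCm38.p6, each 300 bases from 250 before to 50 after a gene's start, on the gene's own strand. All but Krt8 are shown because they hold the E-box most often: of 4961 start windows under a tested peak, 8 held 3 matches and none held more. Capitals mark each CACCTG or CAGGTG, the same site read on either strand. Mier2 (chr10:79555079-79555378, minus strand, 3 matches), Fblim1 (chr4:141599949-141600248, minus, 3), Spint2 (chr7:29281928-29282227, minus, 3) and Patj (chr4:98395576-98395875, plus, 3) lie under peaks that rose at 72 h. Psmd8 (chr7:29180624-29180923, minus, 3) had as many matches under a peak that was not called. Krt8 (chr15:102004293-102004592, minus, 1 match) lies under a peak that fell.
Mier2: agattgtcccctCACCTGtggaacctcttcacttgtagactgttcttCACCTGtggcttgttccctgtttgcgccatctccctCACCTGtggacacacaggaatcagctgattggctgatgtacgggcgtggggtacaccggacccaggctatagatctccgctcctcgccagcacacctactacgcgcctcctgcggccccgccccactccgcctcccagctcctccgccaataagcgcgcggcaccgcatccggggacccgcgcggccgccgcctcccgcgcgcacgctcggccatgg
Fblim1: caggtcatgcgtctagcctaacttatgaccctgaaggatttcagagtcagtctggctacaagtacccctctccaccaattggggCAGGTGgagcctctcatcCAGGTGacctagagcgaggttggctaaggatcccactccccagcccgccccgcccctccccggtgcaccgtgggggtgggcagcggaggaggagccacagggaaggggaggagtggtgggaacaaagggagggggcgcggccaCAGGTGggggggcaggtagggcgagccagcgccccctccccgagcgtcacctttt
Spint2: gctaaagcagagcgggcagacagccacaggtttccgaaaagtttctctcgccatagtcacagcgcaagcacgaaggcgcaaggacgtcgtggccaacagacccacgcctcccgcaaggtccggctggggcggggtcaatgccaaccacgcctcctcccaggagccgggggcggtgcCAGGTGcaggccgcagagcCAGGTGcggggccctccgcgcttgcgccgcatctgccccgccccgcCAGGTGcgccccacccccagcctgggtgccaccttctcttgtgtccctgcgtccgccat
Patj: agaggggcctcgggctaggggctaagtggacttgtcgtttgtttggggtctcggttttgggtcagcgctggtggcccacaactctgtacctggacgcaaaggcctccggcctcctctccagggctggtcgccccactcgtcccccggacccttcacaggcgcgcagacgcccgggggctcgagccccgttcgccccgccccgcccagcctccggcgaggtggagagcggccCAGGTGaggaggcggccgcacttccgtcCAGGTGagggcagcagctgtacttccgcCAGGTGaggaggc
Psmd8: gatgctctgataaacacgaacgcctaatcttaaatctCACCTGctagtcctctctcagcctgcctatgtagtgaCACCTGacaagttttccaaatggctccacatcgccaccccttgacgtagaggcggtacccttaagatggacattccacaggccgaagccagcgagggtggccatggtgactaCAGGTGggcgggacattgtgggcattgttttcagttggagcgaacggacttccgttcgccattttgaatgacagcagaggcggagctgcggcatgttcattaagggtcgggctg
Krt8: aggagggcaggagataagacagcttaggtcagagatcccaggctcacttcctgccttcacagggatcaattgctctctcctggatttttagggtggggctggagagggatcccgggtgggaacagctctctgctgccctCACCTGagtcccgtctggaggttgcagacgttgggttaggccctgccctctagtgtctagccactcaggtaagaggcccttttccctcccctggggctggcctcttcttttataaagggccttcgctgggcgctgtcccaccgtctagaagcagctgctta

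Of the 8 peaks over windows with 3 matches 5 were called higher and 0 lower, and Krt8 was picked for its fall. Of all 4961 windows 14.9% lay under a peak called higher and 0.645% under one called lower. At Mier2, the gene of a protein that recruits histone deacetylases, the controls held 11 and 13.8 CPM (counts scaled to the library's total in tested peaks) and the 72 h libraries 46.2 and 65.9. The log2 fold change was 2.08 (SE 0.405, edgeR adjusted p = 0.000183). Every treated library there, at 24 h and 48 h too, lay above both controls. At Spint2, which encodes an inhibitor of cell surface serine proteases that epithelial cells make, signal went from 11 and 16.8 to 39.3 and 40.8 CPM (1.42, SE 0.43, adjusted p = 0.0183). At Fblim1, a gene of cell to matrix junctions, it went from 27.5 and 18.3 to 55.5 and 62.7 CPM (1.43, SE 0.352, adjusted p = 0.00347). At Patj, a scaffold gene of the Crumbs polarity complex, it went from 11 and 18.3 to 50.8 and 28.2 CPM (1.38, SE 0.418, adjusted p = 0.0187). The groups did not overlap at any of these 4. The window of Anxa7 also held 3 matches and its peak rose (1.21, adjusted p = 0.0131), while those of the glycosyltransferase gene Galnt3 (1.41, adjusted p = 0.104) and of Slc35e4 (0.20, adjusted p = 0.503) did not pass. At Psmd8, a proteasome subunit gene, the libraries overlapped, with 115.5 and 94.8 CPM in the controls and 99.4 and 106.7 at 72 h (0.00, adjusted p = 0.996). At Krt8, the gene of a keratin of simple epithelia, signal fell from 211.8 and 168.2 to 87.8 and 91.0 CPM (-1.05, SE 0.198, adjusted p = 0.000107). Of the 5 rises among the 8 windows with 3 matches, DESeq2 kept that at Mier2 and lost the other 4, and so did leaving out control replicate 2. Patj and Spint2 were lost without control replicate 1, Patj, Anxa7 and Spint2 without 72 h replicate 1, and Spint2 without 72 h replicate 2.

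Over all peaks, 2666 of the 21192 tested (12.6%) were called at an adjusted p below 0.05, with 1450 higher at 72 h (6.84%) and 1216 lower (5.74%). Of these 1068 rose and 782 fell by at least 2-fold, and called peaks had a median of 1.24 where they rose and -1.17 where they fell. Total counts were 372896 and 672582 in the controls and 441521 and 326944 at 72 h, and the median peak held 10 to 20 counts in these libraries. Replicates differed by about counting error, with a chi-square per degree of freedom of 0.931 between the controls and 0.965 between the 72 h libraries (counting error alone gives 1). The number of calls depended on the tool and on the libraries. DESeq2 called 115 (0.543%), 62 higher (0.293%) and 53 lower (0.25%). The median of its final dispersions, which are drawn toward a trend fitted over all peaks, corresponds to a coefficient of variation of 0.259. The common dispersion over all peaks in edgeR, a different measure, corresponds to 0.0341. Before they were drawn toward the trend, the peak-wise dispersions in DESeq2 were at their floor for 89.9% of peaks. Leaving out control replicate 2 gave 713 (3.22%), 351 higher (1.59%) and 362 lower (1.64%), 72 h replicate 1 gave 938, 72 h replicate 2 gave 1310 and control replicate 1 gave 1829. At 12008 of the tested peaks (56.7%) the libraries of the groups did not overlap, so a lack of overlap by itself says little here.

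Rises and falls lay in different places in the genome. Of the 5442 tested peaks with their centre within 1 kb of the start of a protein-coding gene, called start peaks below, 788 were higher at 72 h (14.5%) and 38 lower (0.698%). Of the 15090 other peaks, 628 were higher (4.16%) and 1141 lower (7.56%). Start peaks were thus 26.5% of the tested peaks but 55.6% of the rises and 3.22% of the falls. The median log2 fold change was 0.38 at start peaks and -0.15 elsewhere, a difference of 0.53. Taken over the 4 pairings of a 72 h library with a control library that difference lay between 0.48 and 0.57. The table holds no outside reference to scale by, so a peak's change is set against the rest of its library and a shift common to all peaks would go unseen.

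The same shift appeared in the libraries themselves, before any test. The 6022 start peaks of the whole table held 25.0 and 24.8% of the counts of the control libraries and 30.7 and 31.7% at 72 h, a difference of 6.31 percentage points. The 24 h libraries, with 24.9 and 25.7%, were within 1 point of the controls, and the 48 h libraries held 28.7 and 27.2%. Peaks over 50 kb from a start moved the other way, from 34.0 and 34.3% in the controls to 30.8 and 30.3% at 72 h. The groups did not overlap in either measure, but with 2 libraries against 2 the exact two-sided permutation test gave p = 0.333, the smallest value this design allows.

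**Figure D1:**
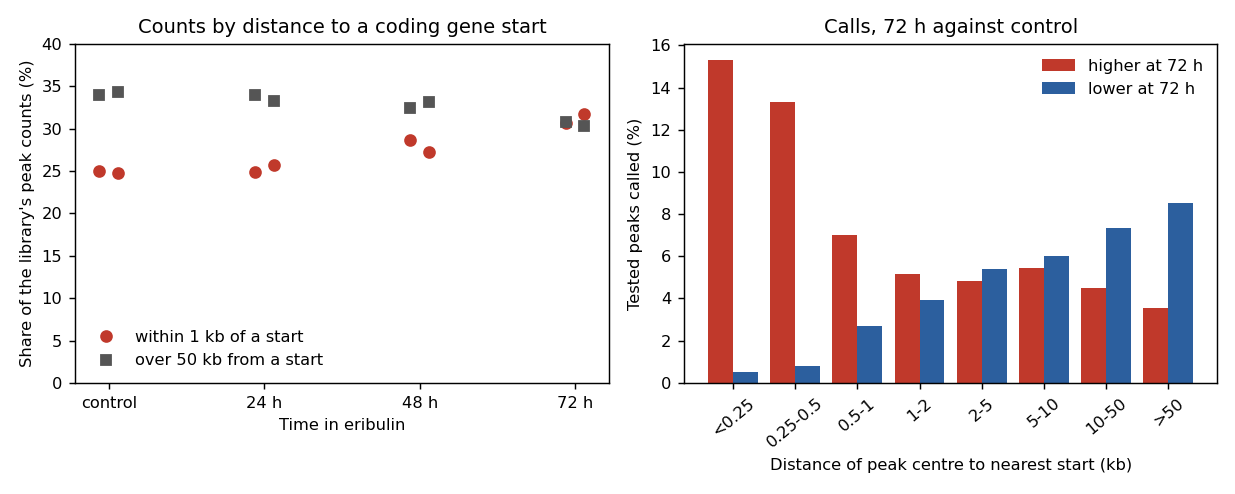
Left, the share of each library's counts (%) in peaks within 1 kb of a protein-coding start (circles) and over 50 kb from a start (squares), 1 point per library, by time in eribulin. Start peaks held 24.8 and 25.0% of counts in the controls and 30.7 and 31.7% at 72 h. Right, the percent of tested peaks higher or lower at 72 h than in control by distance to the nearest start. Rises went from 15.3% within 0.25 kb to 3.56% beyond 50 kb and falls from 0.515% to 8.54%.

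The split followed distance. Within 250 bp of a start 15.3% of 4462 peaks rose and 0.515% fell, between 500 and 1000 bp 7.03% of 370 rose and 2.70% fell, and between 1000 and 2000 bp 5.15% of 485 rose and 3.92% fell. From 2 kb outwards falls outnumbered rises in every bin, reaching 8.54% against 3.56% beyond 50 kb. Of the 7192 peaks beyond 50 kb 5945 were in the authors' control peak list and 3409 in their 72 h list. Of the 5442 start peaks 4291 and 4107 were. The distant peaks were thus weighted to peaks found in control, and the part of this in the falls was not tested. Peaks at a gene boundary with no listed start within 1 kb, which are mostly gene ends or starts missing from the table, rose in 148 of 1155 cases (12.8%) and fell in 23. Peaks at the starts of long non-coding RNA genes that lie away from coding boundaries did not share the excess of rises, with 17 of 254 higher (6.69%), 16 lower and a median of -0.04.

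The size of the difference and the counts of calls both moved with peak height and with the choice of peaks. Of the 21192 tested peaks 17176 were in the authors' control list and 11839 in their 72 h list. Of the 1450 rises 779 and 1335 were in these lists, and of the 1216 falls 1207 and 440. Among peaks present in all 4 of the authors' peak lists the medians were 0.32 at starts and -0.05 elsewhere, and 15% of 2597 start peaks rose and 0.886% fell, against 4.78 and 7.15% of 5371 other peaks. Among peaks with a mean CPM of at least the median of all tested peaks they were 0.32 and -0.13, and among peaks below it 0.50 and -0.17. With all libraries thinned to 326944 counts the difference in medians was 0.50, with 381 start peaks higher and 25 lower. Without control replicate 2 it was 0.54, with 173 higher and 10 lower, and in DESeq2 it was 0.53, with 27 higher and 5 lower. Over the alternative fits, which kept all peaks that passed their filter, it lay between 0.50 and 0.59.

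**Figure D2:**
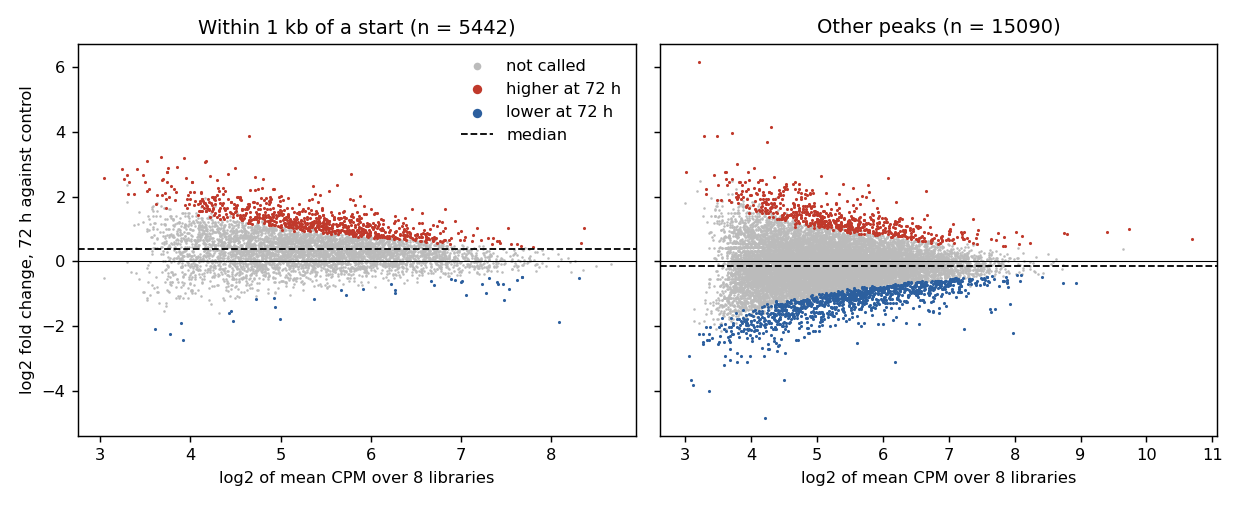
Log2 fold change at 72 h against control (vertical axis) by log2 of the mean CPM over 8 libraries (horizontal axis) for 5442 start peaks (left) and 15090 other peaks (right), 1 point per tested peak. Red points were called higher and blue points lower in edgeR, and the dashed lines are the medians, 0.38 and -0.15.

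GC content of the start window and the number of E-boxes in it both moved with the change. With the 4961 windows split into 5 classes of about equal size by GC content, the share of peaks that rose was 9.28, 11, 14.5, 18.3 and 21.6% from the poorest class to the richest. Windows under rising peaks had a median GC of 65.7%, those under falling peaks 54.7%, those of peaks not called 62.7%, and all 21262 protein-coding windows 56.3%. The median change at 72 h went from 0.24 in the poorest class to 0.55 in the richest. At 24 h, against the same control libraries, the classes had medians of 0.08, 0.06, 0.06, 0.02 and 0.02. Between 24 and 72 h, a comparison free of the controls, the median went from 0.19 to 0.51. GC content of the libraries themselves was not measured here, and its part in the differences at starts was not tested.

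By E-box count, 14.2% of the 4158 peaks whose window held none rose, 17.0% of 689 with 1, 25.5% of 106 with 2 and 5 of 8 with 3. The median change at 72 h was 0.37, 0.46, 0.50 and 1.40 in that order. At 24 h it was 0.01, 0.25, 0.44 and 0.95, so windows with no E-box had a median near 0 at that time. Between 24 and 72 h the order turned, with medians of 0.36 for none, 0.23 for 1, 0.13 for 2 and 0.20 for 3. Among windows at or above the median GC content, 18.0% of those with no E-box rose, 20.9% with 1 and 37.3% of the 67 with 2 or more. Below the median GC content the shares were 10.3, 12.7 and 14.9%, the last of 47 windows. The median change at 72 h in that order was 0.46, 0.55 and 0.68 at or above the median GC content. Below it the medians were 0.31, 0.39 and 0.25, with no steady rise by E-box count.

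As a share of windows, CACCTG on either strand was in 20.2% of the 738 windows of rising peaks, 15.5% of those not called, 4 of 32 of falling peaks and 19.7% of all protein-coding windows. The windows of rising peaks thus held it about as often as windows at large and more often than windows of peaks not called. Its near relative CAGCTG was in 12.6% of the windows of rising peaks, 13.5% of those not called and 15.6% of all windows. CACGTG, the E-box of MYC and related factors, was in 12.3, 10.9 and 7.84%. The AP-1 site TGANTCA was in 4.07, 5.37 and 6.99%. These are different words that can share letters only at their ends. At 72 h 14.7% of the 4410 peaks with no CACGTG rose and 15% of 494 with 1. With 2 it was 29.8% of 47, and with 3 or more 3 of 10. Median changes in that order were 0.38, 0.5, 0.59 and 0.43 at 72 h and 0.05, 0.06, 0.11 and -0.16 at 24 h. For CAGCTG 13.1% of 611 with 1 and 23.5% of 51 with 2 rose. For TGANTCA 15.1% of 4702 with none and 11.9% of 244 with 1 rose. A higher share of rises at 72 h with 2 matches was thus not particular to CACCTG. A match is a run of letters and not a shown binding site, and only 300 bases of each start were searched.

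**Figure D3:**
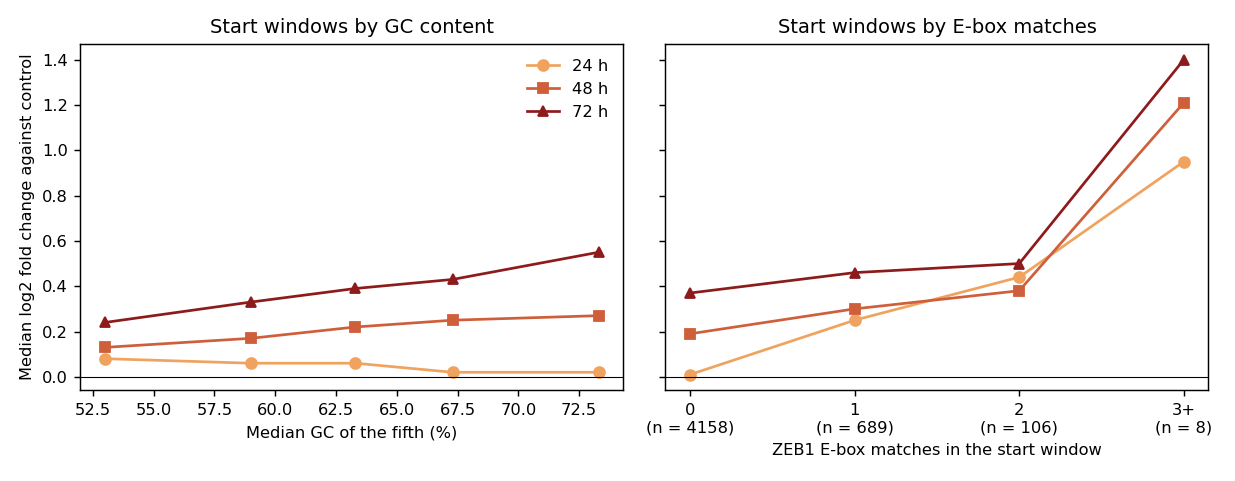
Median log2 fold change against control (vertical axis) of start peaks at 24, 48 and 72 h, by the GC content of their 300-base start window (left, 5 classes placed at their median GC in %) and by the number of CACCTG or CAGGTG matches in it (right). The 3 times share the control libraries. At 72 h the medians went from 0.24 to 0.55 over the GC classes, and at 24 h from 0.01 with no match to 0.95 with 3.

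Larger rises were ranked among called peaks with a neighbouring gene, a mean CPM of 35.5 or more (the median) and no overlap between groups, and 7 of the 15 largest were start peaks. A gene is assigned where its start or end is the nearest of a protein-coding or microRNA gene and within 50 kb of the peak centre, which does not show that it is a target. At the start of Tmem63a, which encodes a mechanically gated cation channel (chromosome 1, 180942155 to 180942711), the controls held 22.0 and 9.17 CPM and the 72 h libraries 83.2 and 100.4. The rise was 2.70 on the log2 scale (SE 0.357, adjusted p = 1.12e-08). Inside Ip6k3, the gene of an inositol phosphate kinase, signal went from 11 and 18.3 to 92.5 and 100.4 CPM (2.59, SE 0.337, adjusted p = 5.83e-09). Near the vitamin D receptor gene Vdr it went from 24.8 and 6.11 to 67.0 and 69.0 CPM (2.39, SE 0.392), and here the controls lay further apart than the treated libraries. Mrps24, a mitochondrial ribosomal protein gene, went at its start from 8.25 and 16.8 to 76.3 and 65.9 CPM (2.37, SE 0.373). Ago3, which encodes an Argonaute protein of small RNA silencing, went at a start from 11 and 27.5 to 76.3 and 103.5 CPM (2.01, SE 0.326). The other start peaks among the 15 were Serf1 (2.33), Tmem221 (2.17), Mier2 and 2300009A05Rik (2.04), and those away from starts were Uaca (2.27), Ankrd12 (2.18), Clec4d (2.08), Borcs5 (2.01), Ddah1 (1.97) and Mir698 (1.94).

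Of the 10 rises with the lowest adjusted p, 4 (Tmem63a, Ip6k3, Mrps24 and Ankrd12) are also among the 15 largest. Near Ankrd12, an ankyrin repeat gene, signal went from 30.3 and 35.2 to 159.5 and 141.2 CPM (adjusted p = 7.53e-11). Near Rimbp3 it went from 511.5 and 415.8 to 809.0 and 903.4 CPM, a rise of 0.90 (SE 0.121, adjusted p = 1.52e-08). At a start of the fatty acid transporter gene Slc27a1 it went from 200.8 and 201.8 to 409.1 and 414.1 CPM (1.03, SE 0.145), with replicates that lay close together in each group. At a start of Adk, the gene of adenosine kinase, it went from 49.5 and 45.9 to 147.9 and 144.3 CPM (1.63, SE 0.239). These peaks with Tmem63a, Ip6k3, Mrps24, Myl12b (0.89), Zmiz2 (1.45) and Cyb5r1 (1.61) are the 10 rises of lowest p, and all 10 also passed in DESeq2 and without any 1 of the 4 libraries compared. Of the 15 largest rises all passed in DESeq2, but Vdr (adjusted p = 0.0531), Tmem221 (0.0580) and Ddah1 (0.0562) did not pass without control replicate 2, nor Borcs5 without 72 h replicate 1. Further rises at starts were those of Marchf8, a ubiquitin ligase gene, from 22.0 and 19.9 to 80.9 and 72.1 CPM (1.89, SE 0.333), and of Kctd3 (1.93), Gpr3 (1.91), Peli3 (1.88) and Asmt (1.82), of which Gpr3, Peli3 and Asmt were not called in DESeq2 and Peli3 not without 72 h replicate 1.

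**Figure D4:**
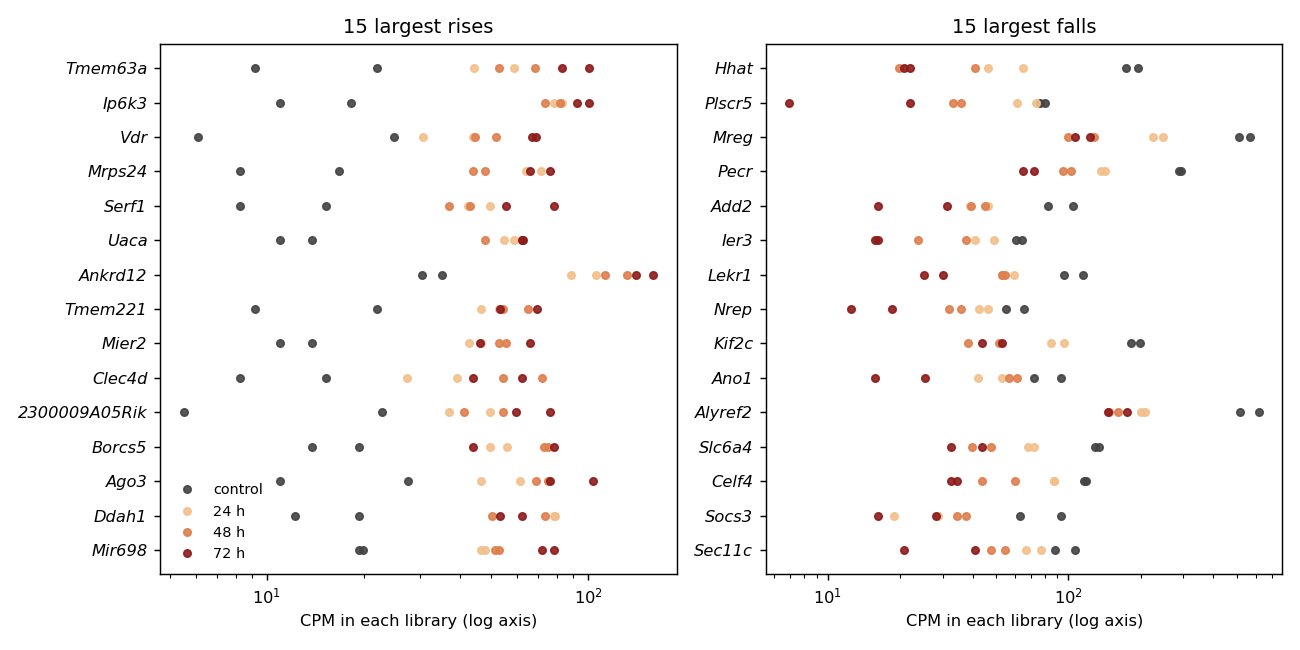
CPM in each of the 8 libraries (horizontal axis, log scale) for the 15 largest rises (left) and 15 largest falls (right) at 72 h against control within the limits given in the text. Each point is a library, coloured by group. At Tmem63a the controls were at 22.0 and 9.17 CPM and the 72 h libraries at 83.2 and 100.4, and at Hhat the controls were at 173.3 and 194.1 and the 72 h libraries at 20.8 and 22.0.

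The falls of lowest adjusted p lay beside genes of small nuclear RNAs, the RNA parts of the spliceosome and related particles. All 10 falls of lowest adjusted p had such a gene within 1 kb of the peak centre, against none of the 10 rises. Of the 15 largest falls by fold change, under the limits used for the rises, 5 had one. Peaks beside these genes were tall, with a median mean CPM of 87.2 against 35.5 for all tested peaks. Inside Hhat, the gene of the hedgehog acyltransferase, and beside the small nuclear RNA gene Gm22265 (chromosome 1, 192745529 to 192746775), the controls held 173.3 and 194.1 CPM and the 72 h libraries 20.8 and 22.0. The fall was -3.12 (SE 0.284, adjusted p = 2.97e-16). Near Mreg and beside Gm25360 signal went from 566.5 and 513.6 to 122.5 and 106.7 CPM (-2.21, SE 0.157, adjusted p = 3.13e-23). Near Pecr and beside Gm25939 it went from 294.3 and 287.4 to 64.7 and 72.1 CPM (-2.09, SE 0.192). Over the start of Alyref2, an mRNA export adaptor gene, and beside LOC115487699, it went from 514.3 and 619.1 to 145.6 and 175.7 CPM (-1.86, SE 0.146). Beside the U1 gene Rnu1b6 it went from 374.0 and 345.5 to 115.6 and 125.5 CPM (-1.57, SE 0.164, assigned gene BC107364).

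Of all 58 tested peaks with a small nuclear RNA gene within 1 kb, 34 fell (58.6%, against 5.74% of all tested peaks) and 0 rose, with a median of -0.90 and a range from -3.21 to 0.62. At 39 of the 58 both 72 h libraries lay below both controls, as they did at 27.9% of all tested peaks. DESeq2 called 20 of them lower, and 27 were called lower without control replicate 2. The 63 such peaks of the whole table held 0.84 and 0.854% of the counts of the control libraries and 0.407 and 0.418% at 72 h. The shares were 0.49 and 0.471% at 24 h, then 0.41 and 0.404% at 48 h, so most of that difference was present at 24 h. The median between 24 and 72 h was -0.18. These genes have near-identical copies, and the sources used here do not say how reads shared by copies were counted, so the share of each copy is uncertain. Without these peaks the other peaks away from starts still fell more often than they rose, with 1109 of 15042 lower (7.37%) and 628 higher.

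Falls with no small nuclear RNA gene beside them were mostly away from starts, with 1109 of 1182 more than 1 kb from a listed start. Of the 15 largest falls 1, at Alyref2 and beside such a gene, was a start peak. Celf4, Nrep and Sec11c, also among the 15, lie on a chromosome with no listed starts. Near Plscr5, of the phospholipid scramblase family, signal went from 79.8 and 76.4 to 6.93 and 22.0 CPM (-2.52, SE 0.386, adjusted p = 1.06e-06). Inside Add2, the gene of the cytoskeletal protein beta-adducin, it went from 104.5 and 82.6 to 16.2 and 31.4 CPM (-1.99, SE 0.326). Inside Celf4, an RNA-binding protein gene, it went from 118.3 and 116.2 to 32.4 and 34.5 CPM (-1.81, SE 0.278), with replicates close together. Inside the serotonin transporter gene Slc6a4 the change was -1.83 and near Socs3, the gene of a suppressor of cytokine signalling, -1.78. Others were near Ier3 (-1.96), Lekr1 (-1.94) and Nrep (-1.94), inside the chloride channel gene Ano1 (-1.89) and near the signal peptidase gene Sec11c (-1.77). Ier3, Nrep and Socs3 did not pass in DESeq2, and all 15 passed without any 1 of the 4 libraries. At gene boundaries the falls other than Alyref2 and Krt8 included Cntf (-1.70), which encodes a neurotrophic factor, and the histone gene H2ac15 (-1.20), a member of a family of near-identical genes. Of the 10 boundary falls, Cntf, Ifi211, Smyd4, Plbd1 and Cox20 were not called in DESeq2 or without control replicate 2, and each was also lost with another library left out.

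Of the 37 tested peaks of a set of genes best known in the epithelial to mesenchymal transition 6 were called, against 12.6% of all tested peaks. The falls were at Krt8, at a pair of Krt18 peaks and near Epcam, and the rises at Spint2 and near Vim. The 4 tested peaks assigned to Cdh1, which encodes E-cadherin, had changes from -1.05 to 0.28 with adjusted p of 0.125 or more. Their centres lay 5153 to 16239 bp from the nearest start or end of the gene, so they do not describe its start. The largest of them held 71.5 and 94.8 CPM in the controls and 80.9 and 72.1 at 72 h, and the groups overlapped. The tested peak inside Zeb1 itself went from 79.8 and 94.8 to 60.1 and 53.3 CPM (-0.64, SE 0.258, adjusted p = 0.0830). At the start of Vim, the gene of vimentin, the change was -0.31 (adjusted p = 0.361), while a peak 10792 bp from the gene's boundary rose (0.97, adjusted p = 0.0282) but was not called in DESeq2 or without either control library. Snai2, a repressor of E-cadherin, had 0.88 at its boundary (adjusted p = 0.0529), and none of the peaks of Snai1, Zeb2, Fn1, Cdh2, Cldn3 or Cldn4 was called. Twist1, Cldn7, Spint1, Esrp1, Esrp2, Grhl2, Ovol1 and Ovol2 had no tested peak assigned.

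The gene lists come next, epithelial genes before mesenchymal, signalling and nuclear ones, and most of their calls rest on low counts. Beside each list stand all tested peaks, of which 6.84% rose and 5.74% fell. Of the 84 called list peaks that are named, DESeq2 called 3, lost 28 and gave no adjusted p for 53. Leaving out control replicate 2 kept 16, 72 h replicate 1 kept 28, 72 h replicate 2 kept 35 and control replicate 1 kept 51. Of the epithelial list, 7 of 57 tested peaks fell (12.3%) and 3 rose (5.26%), with a median of -0.22 against 0.00 for all tested peaks, and 10.5% of its peaks were at starts against 26.5% overall. Within 10 kb of a boundary of the assigned gene 3 of 36 fell and 3 rose, so other falls lay further out. The share of all tested peaks within that distance was not taken. The keratin pair Krt8 and Krt18, which form the filaments of simple epithelia, lie next to each other. Of the tested peaks assigned to them 3 fell, at Krt8 as given above and outside Krt18 from 132 and 159 to 62.4 and 50.2 CPM (-1.38, SE 0.232, adjusted p = 9.88e-06) and by -0.71 (adjusted p = 0.00674). The peak at the start of Krt18 went from 24.8 and 16.8 to 32.4 and 28.2 CPM (0.63, adjusted p = 0.345). The peak nearest Epcam, an epithelial adhesion gene, lay 26079 bp from its boundary. It fell from 41.3 and 39.7 to 18.5 and 12.5 CPM (-1.32, adjusted p = 0.0283). Spint2, Jup, the gene of the junction protein plakoglobin (0.65, adjusted p = 0.0174), and a peak near Klf5 rose. Of these the Krt8 and -1.38 Krt18 falls also passed in DESeq2 and without each library. The calls at Epcam, Spint2 and Jup did not pass in DESeq2 or with any 1 library left out. The Klf5 peak held 4 control counts in all, and DESeq2 gave it no adjusted p.

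The tight junction and polarity list had 6 of 62 peaks higher (9.68%) and 0 lower, with a median of 0.37, against 6.84% higher and 5.74% lower of all tested peaks. At the start of Llgl1, a basolateral polarity gene, signal went from 11 and 18.3 to 48.5 and 37.6 CPM (1.47, SE 0.408, adjusted p = 0.00998). Near Amotl2, a junctional regulator of the Hippo pathway, a rise of 1.49 (adjusted p = 0.0419) and near the tricellular junction gene Marveld2 of 1.69 (adjusted p = 0.0486) rested on 10 and 7 control counts in all. The list's medians at 24 and 48 h, with the same controls, were 0.44 and 0.35, and between 24 and 72 h it was -0.09. None of its rises passed in DESeq2 or without control replicate 2.

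Peaks of mesenchymal genes fell about as often as all tested peaks. In the mesenchymal list 7 of 113 peaks fell (6.19%) and 5 rose (4.42%), with a median of -0.15, against 5.74 and 6.84% of all tested peaks. Loxl3, which encodes a collagen crosslinking enzyme, rose inside the gene from 5.50 and 10.7 to 37.0 and 40.8 CPM (2.1, SE 0.485, adjusted p = 0.00180), while inside its relative Loxl2 signal fell (-1.58, adjusted p = 0.00389). In the collagen list 9 of 61 fell (14.8%) and 2 rose (3.28%), against the same 5.74 and 6.84%, with a median of -0.20 and 4.92% of peaks at starts. Within 10 kb of a boundary of the assigned gene 2 of 18 fell and 1 rose. Near Col6a2 the counts were 21 and 24 in the controls and 0 and 1 at 72 h, a ratio of 0.0302 (95% exact interval 0.000747 to 0.177, counting error only). Near Col6a1 (-1.58) and Col6a3 (-1.38), whose products join with that of Col6a2 in type VI collagen, signal fell too, and inside Col17a1 (1.16) and Col8a2 (1.08) it rose. Of the peaks named here, DESeq2 called none. Of the 5 collagen peaks it gave an adjusted p only for Col8a2 and no value for the other 4. Col6a2 passed in edgeR without each library.

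**Figure D5:**
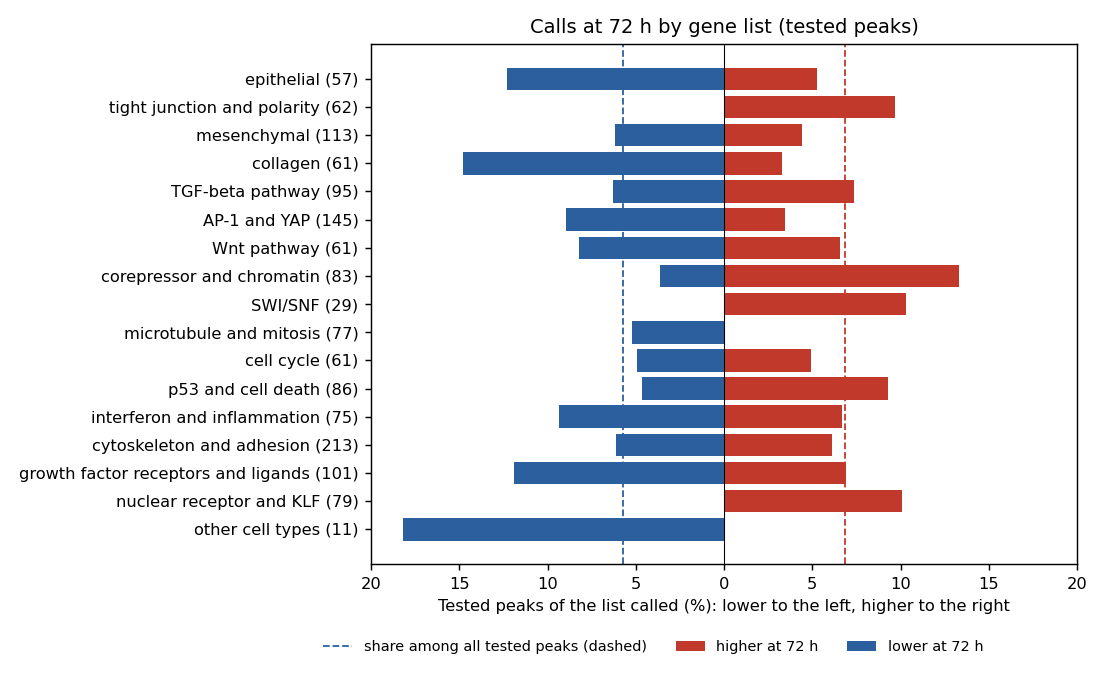
Percent of the tested peaks of each gene list that were higher (right, red) or lower (left, blue) at 72 h than in control in edgeR, with the number of tested peaks in brackets. Dashed lines mark the shares among all tested peaks, 6.84% higher and 5.74% lower. The tight junction and polarity list had 6 rises and 0 falls, and the collagen list 9 falls and 2 rises.

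The TGF-beta and Wnt lists had shares of calls near those of all tested peaks. Of 95 peaks of the TGF-beta pathway 7 rose (7.37%, against 6.84%) and 6 fell (6.32%, against 5.74%). Within 10 kb of a boundary of the assigned gene 6 of 47 rose and 0 fell. Signal rose at the start of Ski (1.54), an inhibitor of Smad proteins. It fell 43562 bp from the receptor gene Tgfbr2, from 90.8 and 93.3 to 32.4 and 53.3 CPM (-1.16, SE 0.291, adjusted p = 0.00413). Inside the ubiquitin ligase gene Smurf1 it fell too (-0.97, adjusted p = 0.00144). Of 145 peaks of AP-1 and YAP genes 5 rose (3.45%) and 13 fell (8.97%). Ajuba, a LIM protein gene of the Hippo pathway, rose at its start (1.76, adjusted p = 0.00330), and the immediate early gene Egr1 fell at its boundary (-1.77, adjusted p = 0.0169), as did a peak near Ier3. Of 61 Wnt pathway peaks 4 rose (6.56%) and 5 fell (8.2%), with a rise at Lrp5, which encodes a Wnt co-receptor, from 16.5 and 18.3 to 46.2 and 69.0 CPM (1.65, SE 0.374, adjusted p = 0.00145). Of 101 peaks of growth factor receptors and ligands 12 fell (11.9%) and 7 rose (6.93%), with a median of -0.26. Within 10 kb of a boundary of the assigned gene 3 of 48 fell and 4 rose. Pdgfb, the gene of a platelet-derived growth factor chain, rose inside the gene from 2.75 and 4.59 to 25.4 and 43.9 CPM on 4 control counts (3.01, SE 0.651, adjusted p = 0.000779), and the Notch ligand gene Jag1 fell (-1.69, adjusted p = 0.0214). None of the named peaks of these 4 lists was called by DESeq2, which gave some of them no adjusted p.

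Corepressor and chromatin genes had 11 of 83 peaks higher (13.3%) and 3 lower (3.61%), with a median of 0.12 and 36.1% of peaks at starts. At the start of the DNA methyltransferase gene Dnmt3b signal went from 2.75 and 7.64 to 18.5 and 43.9 CPM (2.27, SE 0.58, adjusted p = 0.00478). Sin3a, the scaffold of a histone deacetylase complex, had a rise at a start (1.77, adjusted p = 0.0368) and a fall at another start peak (-0.49, adjusted p = 0.0303). For SWI/SNF remodelling genes 3 of 29 rose (10.3%) and 0 fell, at Phf10 (2.05), Dpf1 (1.77) and the core subunit gene Smarcb1 (1.37). For nuclear receptors and KLF factors 8 of 79 rose (10.1%) and 0 fell, led by Ppara, the fatty acid sensing receptor gene (2.55, SE 0.512, adjusted p = 0.000295), Klf5 (2.46) and Vdr. Start peaks were 41.4% of the SWI/SNF list and 25.3% of the nuclear receptor list. Of the peaks named here DESeq2 called Vdr, and Dnmt3b and Klf5 were among those for which it gave no adjusted p.

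Of 77 peaks of microtubule and mitosis genes 0 rose and 4 fell (5.19%), although the list's median was 0.20 and 40.3% of its peaks were at starts. The falls included Kif2c, the gene of a kinesin that shortens microtubules, where the peak lies beside the small nuclear RNA gene Gm25099 (-1.93, adjusted p = 8.77e-11), the kinesin gene Kif5b (-1.31) and Tacc1 (-2.04). Of 61 cell cycle peaks 3 rose and 3 fell (4.92% each), with rises at Rb1 (1.31), the gene of the retinoblastoma protein, Cdkn2c (1.32) and Cdk4 (0.76) and falls near the kinase gene Wee1 (-0.91) and near E2f7 (-0.79) and E2f8 (-0.83). For p53 and cell death genes 8 of 86 rose (9.3%) and 4 fell (4.65%), with a rise at a start of Bbc3, the gene of the death-promoting protein PUMA, from 24.8 and 21.4 to 60.1 and 65.9 CPM (1.46, SE 0.342, adjusted p = 0.00205) and a fall inside Bmf (-2.08). Of 75 interferon and inflammation peaks 5 rose (6.67%) and 7 fell (9.33%), with a rise at Lif (1.19) and falls near Socs1 (-1.53) and Socs3. Of 213 cytoskeleton and adhesion peaks 13 rose and 13 fell (6.1% each). Markers of blood, nerve, muscle and other lineages had few peaks: 7 of 29 genes had any tested, and of their 11 peaks 0 rose and 2, both near the leukocyte gene Ptprc, fell. Of the 17 lists' named peaks in these groups DESeq2 called Kif2c.

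Signal at 72 h also differed from that at 24 h, a comparison that leaves the controls out. Of the 21192 peaks 999 were called (4.71%), 492 higher at 72 h (2.32%) and 507 lower (2.39%). Start peaks made up 313 of the rises and 9 of the falls, and their median change between the times was 0.33 against -0.13 at other peaks. At the boundary of Klf16 signal went from 25.6 and 23.2 CPM at 24 h to 71.7 and 84.7 at 72 h (1.66, SE 0.301, adjusted p = 0.000264), where the controls held 63.3 and 74.9. The 72 h libraries there overlapped the controls (0.13 against control, adjusted p = 0.792). At Myo5a, a myosin motor gene, it went from 17.1 and 16.4 to 50.8 and 65.9 CPM (1.77, SE 0.352), with controls between at 33.0 and 21.4. Near Amotl2 another peak went from 58.0 and 76.4 at 24 h to 20.8 and 22.0 CPM at 72 h (-1.67, SE 0.337, adjusted p = 0.00115), near the controls' 24.8 and 15.3. Near Plscr5 signal went down step by step, with 73.3 and 61.4 CPM at 24 h, then 33.1 and 35.9, and last 6.93 and 22.0 (-2.31 between 24 and 72 h, adjusted p = 7.4e-05). Of the 999 calls, 190 were peaks higher and 169 peaks lower at 72 h than in both other groups, 4 went against the difference from control and 636 were not called against control. DESeq2 called 5, and leaving out 1 of the 4 libraries gave between 208 and 394.

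Between 48 and 72 h edgeR called 8 peaks (0.0378%), 6 higher (0.0283%) and 2 lower (0.00944%), with 2045 at an unadjusted p below 0.05, and DESeq2 called 0. The 3 named were the start of Phf20, from 31.8 and 30.8 CPM at 48 h to 76.3 and 84.7 at 72 h (1.34, SE 0.28, adjusted p = 0.0242), the start of the stress gene Sesn2 (1.17, SE 0.262, adjusted p = 0.0476) and a peak near Gtpbp4 (0.70, SE 0.151, adjusted p = 0.0308). The median change between 48 and 72 h was 0.17 at start peaks and -0.08 elsewhere. Without 72 h replicate 2 no peak was called, and without 48 h replicate 1 there were 20.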

How the data were processed

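Per the labels, ZEB1 was profiled by CUT&RUN (EpiCypher CUTANA kit) and sequenced paired-end at 76 bp. The submitters' processing notes name Bowtie2 2.2.6, MACS2 2.1.1, featureCounts, bedtools 2.30.0, cutadapt 2.4 and Picard with GRCm38, without their settings. The authors' deposited table holds raw counts per library in 23623 consensus peaks, with no scaling by the authors. The authors' peak lists, 1 per group, give a fold over IgG and the −log10 of p and q values, and only membership in them was used here. The lists are named for replicate 1, so consensus peaks need not treat the replicates alike.

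Peak counts went into edgeR 4.0.16 under R 4.3.3 (filterByExpr by group, TMM, quasi-likelihood F-tests, 1 mean for each of the 4 groups, 8 libraries, 4 residual degrees of freedom, robust). This kept 21192 peaks (89.7%), and p-values were Benjamini-Hochberg adjusted over them. SE is that of the log2 fold change, from the F statistic. DESeq2 1.42.0 was the alternative tool. CPM values use TMM-scaled totals in tested peaks. Each peak took the nearest start or end of a protein-coding or microRNA gene within 50 kb as its gene, and start peaks have a listed start within 1 kb, both from RefSeq tables of GRCm38.p6. Of 23623 peaks 18290 (77.4%) had a gene. No starts were listed for the chromosomes of 660 tested peaks, which enter neither class. Of 814 listed genes 813 matched (Pals1 did not). A start window belongs to the tested peak it overlaps, and motifs were searched on both strands. The test was also run on simulated counts that varied by edgeR's own common dispersion, so that run cannot show whether these libraries vary so.

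Named are the 15 largest rises and falls among called peaks that have a gene, a mean CPM of 35.5 (the median) or more and no overlap, the 10 of lowest p and the 10 largest at boundaries in each direction, up to 3 per list and direction, all peaks of 22 genes of the epithelial to mesenchymal transition, and 5 per direction against 24 and 48 h. The windows with 3 E-boxes were chosen after they were searched. The members, gene lists and alternatives were chosen with earlier results of these data known. Beyond the compared pairs, each replicate was left out, libraries were thinned or summed, and scaling, filter and replicate block were changed.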

Additional observations from a re-analysis of the deposited data

Results flagged for a closer look

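The change from control differed between 72 h and 24 h at 999 peaks by the test of 72 h against 24 h, in which the shared controls cancel. By the same test it differed between 72 h and 48 h at 8 peaks.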

How the results depend on the processing

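For 72 h against control, thinned libraries gave 1417 calls and DESeq2 115, against 2666, and leaving out 1 of the 4 libraries gave 713 to 1829. For 72 h against 24 h, against 999, thinned libraries gave 450, summed replicate pairs 657 and DESeq2 5, and leaving out a library gave 208 to 394. For 72 h against 48 h, against 8, the 4 compared libraries alone gave 5, summed pairs 3, DESeq2 0, and leaving out a library gave 0 to 20. The cause was not tested, except that thinned fits hold fewer counts and left-out fits fewer libraries. With summed pairs only the 48 h pair measures the spread, and with a library left out its partner is assumed to vary like the other groups. In DESeq2 the peak-wise dispersion, before it was drawn toward the fitted trend, was at its floor for 89.9% of peaks. Replicate numbers are not said to pair libraries, and deviations of same-numbered libraries correlated at -0.0287 to 0.00116. The replicate block gave 2566, 951 and 8 calls for the 3 comparisons. The difference in medians between start and other peaks, 0.53, lay between 0.50 and 0.59 in the alternative fits to the whole table. Of the 147 named peaks called against control, 49 were lost and 53 had no adjusted p in DESeq2, and 82 were lost without control replicate 2, 40 without control replicate 1, 67 and 57 without 72 h replicate 1 and 2. No called peak that is named changed sign in an alternative. At 30 rises the controls, and at 40 falls the 72 h libraries, held 3 counts or fewer in all, where fold sizes are not resolved.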
